A study of Asparagus officinalis with 3 samples.

Results

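The miR167 family of garden asparagus (Asparagus officinalis) comprised 7 of the 194 unique small RNA sequences listed for female and male plants, and 8 of the 463 listed miRNA-to-unigene alignments belonged to it. The members are all sequences assigned to the family miR167 in the expression table. Their targets are all unigenes (assembled transcript sequences) aligned to that family in the target table. No measured value was used to choose among the listed sequences. The list itself, however, holds only sequences that reached 5 TPM (scaled reads) in either library. A further member that the study names, aof-miR167g, is shorter than the sequences of the expression table and was not analysed here, so every count, sum and share of the family covers the 7 listed sequences only. Asparagus is dioecious, with separate female and male plants, and the study asked how miRNAs differ between the sexes. One small RNA library was made from females and one from males, each from equal amounts of RNA of leaves, roots, stems and flowers of greenhouse plants aged 3 years, with several plants pooled. A further library of RNA fragments from both sexes, a degradome, was not analysed here. Each sex had 1 library, so the spread between plants is unknown, no p-value was computed between the sexes, and a value cannot be assigned to any single organ of the pool.

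In flowering plants miR167 pairs with the mRNAs of ARF6 and ARF8, transcription factors of the auxin response factor (ARF) class that bind auxin-responsive promoters through a B3 domain and activate transcription. The pairing leads to cleavage of these mRNAs. In Arabidopsis, the balance of miR167 with ARF6 and ARF8 is needed for the development of stamens and ovules, which makes the family of interest in a plant with separate sexes.

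The 7 sequences are shown because they differ mainly at their ends. The capitals mark the seed, bases 2 to 8 from the 5′ end.
aof-miR167h: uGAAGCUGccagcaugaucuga
aof-miR167i: uGAAGCUGccagcaugaucugc
aof-miR167c: uGAAGCUGccagcaugaucua
aof-miR167d: uGAAGCUGccagcaugaucug
aof-miR167e: gAAGCUGCcagcaugaucuga
aof-miR167a: uGAAGCUGccagcaugaucu
aof-miR167b: gGUCAUGCucugacagccucacu

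The members aof-miR167h, i, c, d and a (5 of 7) shared 1 seed, and no sequence of another family carried it. Of these, aof-miR167a (20 nt) and aof-miR167d (21 nt) are aof-miR167h (22 nt) shortened at the 3′ end by 2 bases and 1 base. The sequence of aof-miR167e (21 nt) is that of aof-miR167h without its first base, which moves the seed by 1 base. Single substitutions at the last base separate the other members from these, G21A between aof-miR167d and aof-miR167c and A22C between aof-miR167h and aof-miR167i, with positions counted from the 5′ end. The member aof-miR167b (23 nt) differs throughout. Folded against aof-miR167h, it formed 17 base pairs over bases 1 to 20 of aof-miR167h, with 3′ ends of 2 bases on aof-miR167h and 1 base on aof-miR167b left unpaired. Dicer-like enzymes cut miRNAs from hairpins as duplexes with 3′ overhangs. The member aof-miR167b is called the other-arm member here, as a label for its different sequence and not as an established origin. No other family held a sequence with more than 12 bases identical to a miR167 member in an ungapped placement.

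**Figure D1:**
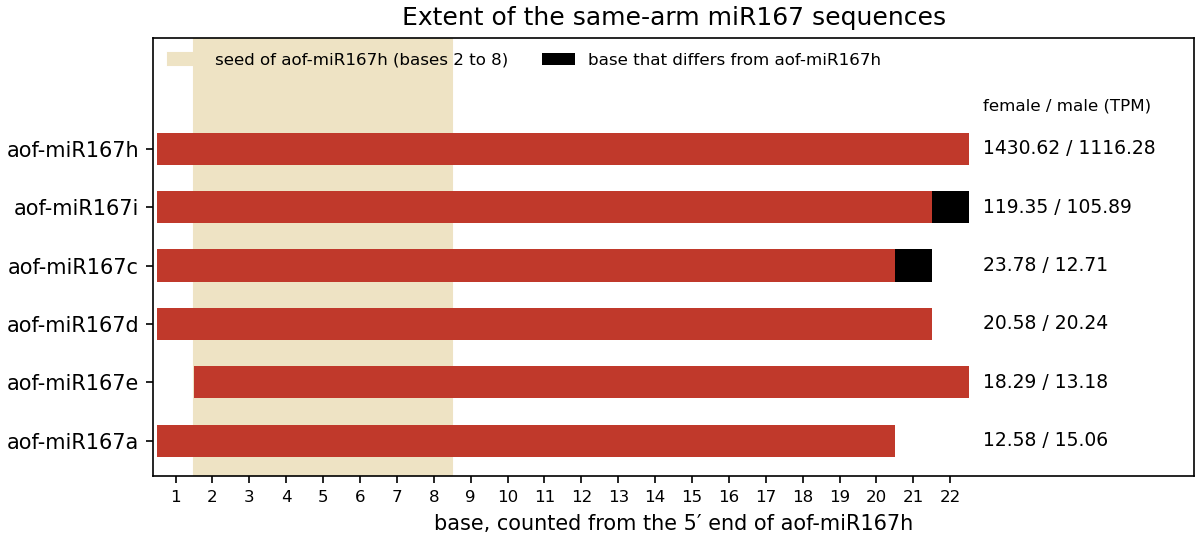
Extent of the 6 same-arm miR167 sequences, with the base number counted from the 5′ end of aof-miR167h on the horizontal axis; black marks a base that differs from aof-miR167h and the figures at the right are the female and male values in TPM. Only aof-miR167e starts at base 2, and the sequences end at base 20, 21 or 22.

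The values are the reads of each sequence scaled to the size of its library, deposited under the name TPM and not divided by length. The most abundant member, aof-miR167h, had 1430.62 TPM in females and 1116.28 TPM in males, and it ranked 7th and 9th of all 194 sequences. The second, aof-miR167i, had 119.35 TPM in females and 105.89 TPM in males. The other 5 members lay between 10.52 and 23.78 TPM in females and between 3.29 and 20.24 TPM in males. Among the 7 listed sequences, the pair of 22 nt was thus the most abundant in both sexes.

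Low values in the table rise in even steps of 0.229 TPM (female) and 0.157 TPM (male). If 1 step is 1 read, aof-miR167h rests on 6257 and 7116 reads and aof-miR167b on 46 and 21 reads. This condition was not established, since only 21 values per library lie within 20 steps. The library totals it implies were 4373625 and 6374800 reads. The clean read numbers stated for these libraries are higher than this before the removal of rRNA reads and lower after it. The 95% intervals given below are exact intervals made on that condition. They cover counting error only, since reads after PCR are not independent molecules and plants and library preparation add variation that 1 library per sex cannot show.

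Within the female library the order was h, i, c, d, e, a and b, and within the male library it was h, i, d, a, e, c and b. Among the low members, neighbours in this order were mostly not separated by counting error. In the female library, aof-miR167c had 23.78 TPM (19.4 to 28.8), aof-miR167d 20.58 TPM (16.5 to 25.3) and aof-miR167e 18.29 TPM (14.5 to 22.8), and these intervals overlapped. In the male library, aof-miR167a had 15.06 TPM (12.2 to 18.4), aof-miR167e 13.18 TPM (10.5 to 16.3) and aof-miR167c 12.71 TPM (10.1 to 15.8), again overlapping. The other-arm member aof-miR167b stood at 3.29 TPM (2.04 to 5.04) in the male library, below the intervals of all other members there. In the female library its 10.52 TPM (7.70 to 14.0) overlapped the interval of aof-miR167a at 12.58 TPM (9.47 to 16.4).

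**Figure D2:**
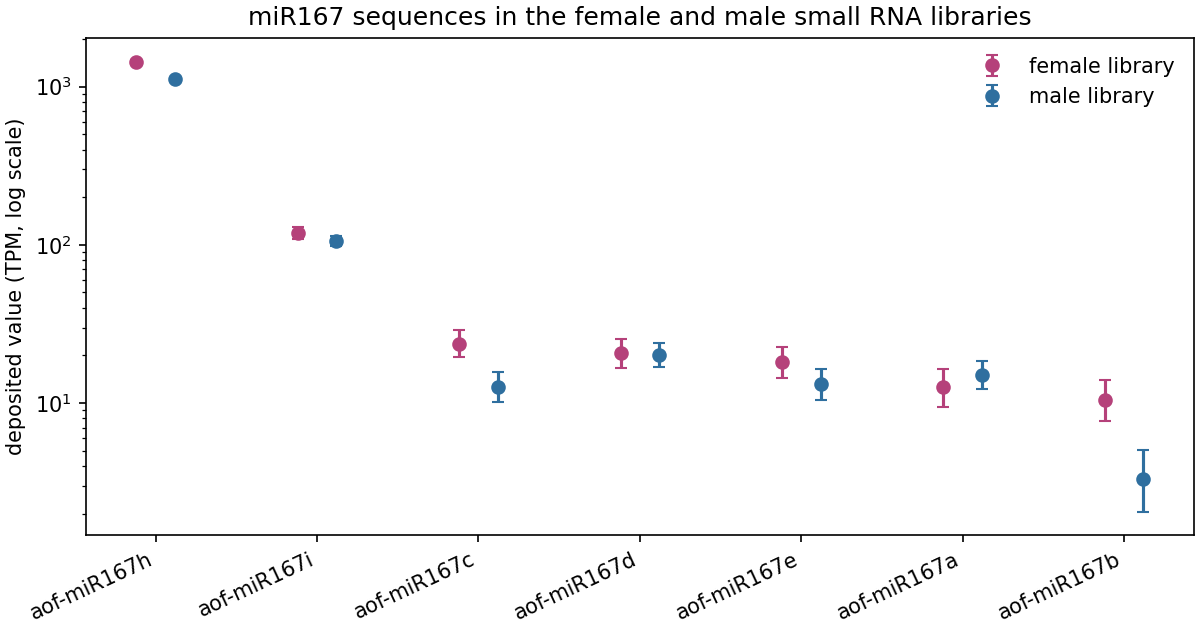
Deposited values (TPM, log scale) of the 7 miR167 members, with 1 point per library (female and male) and bars for the 95% counting interval if 1 step of the values is 1 read. The points of aof-miR167h lie at 1116.28 TPM or above, and the clearest gap between the libraries is that of aof-miR167b, 10.52 against 3.29 TPM.

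Between the libraries, 1 of the 7 members was over 2-fold apart, whereas 30.9% of all 194 listed sequences passed this threshold and 18.0% of the 194 passed it with the female value higher. That member was aof-miR167b, the other-arm sequence, with a female to male ratio of 3.20 (1.87 to 5.63). Its male value of 3.29 TPM is under the 5 TPM needed for listing, so it was listed only through its female value. The direction of its ratio is therefore not independent of the listing. The same rule bears on the shares of all listed sequences. The member with the next largest ratio was aof-miR167c, with 1.87 (1.39 to 2.53). It raised the count to 2 of 7 at a 1.5-fold threshold, which 47.9% of all sequences passed, and at 3-fold aof-miR167b alone remained, where 18.0% of all sequences passed. It was also the only member past 2-fold with an adjusted p under 0.05 by Fisher's exact test on the rebuilt reads, a comparison of 2 libraries that 30.4% of all sequences passed. The smaller share of miR167 members past these thresholds rests on 7 sequences and was not tested. The study reports the shorter aof-miR167g, which is not among the listed sequences, as differentially expressed and higher in females. The smaller share therefore holds for the listed members only and does not describe the whole family.

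The ratios of the other 5 listed members lay nearer to 1. The female to male ratio of aof-miR167h was 1.28 (1.24 to 1.33) and that of aof-miR167i was 1.13 (1.004 to 1.27). The ratio of aof-miR167e was 1.39 (1.01 to 1.91). For aof-miR167d, at 20.58 TPM in females and 20.24 TPM in males, it was 1.02 (0.768 to 1.34). The only member with the higher value in the male library was aof-miR167a, with a ratio of 0.835 (0.588 to 1.18), an interval that includes equality. Counting differences of any size, 6 of the 7 members were thus higher in females, against 57.7% of all listed sequences. The same-arm members differ only at their ends, so the members are not independent, and aof-miR167b was listed only through its female value. The median log2 ratio of the 7 members was 0.36, beside 0.18 for the 193 listed sequences above 0 in both libraries. Relative to the median of the list, the log2 ratio of aof-miR167h was 0.18, and those of aof-miR167d and aof-miR167i changed sign to -0.15 and -0.0039.

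Summed over the family, miR167 had 1635.72 TPM in females and 1286.65 TPM in males, a ratio of 1.27 (1.23 to 1.31). It was the 4th most abundant of the 26 conserved families in females and the 5th in males. The sum follows aof-miR167h. Without it the other 6 members summed to 205.1 and 170.37 TPM, a ratio of 1.20 (1.10 to 1.32). After rescaling by the median ratio of all sequences the family ratio was 1.13.

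**Figure D3:**
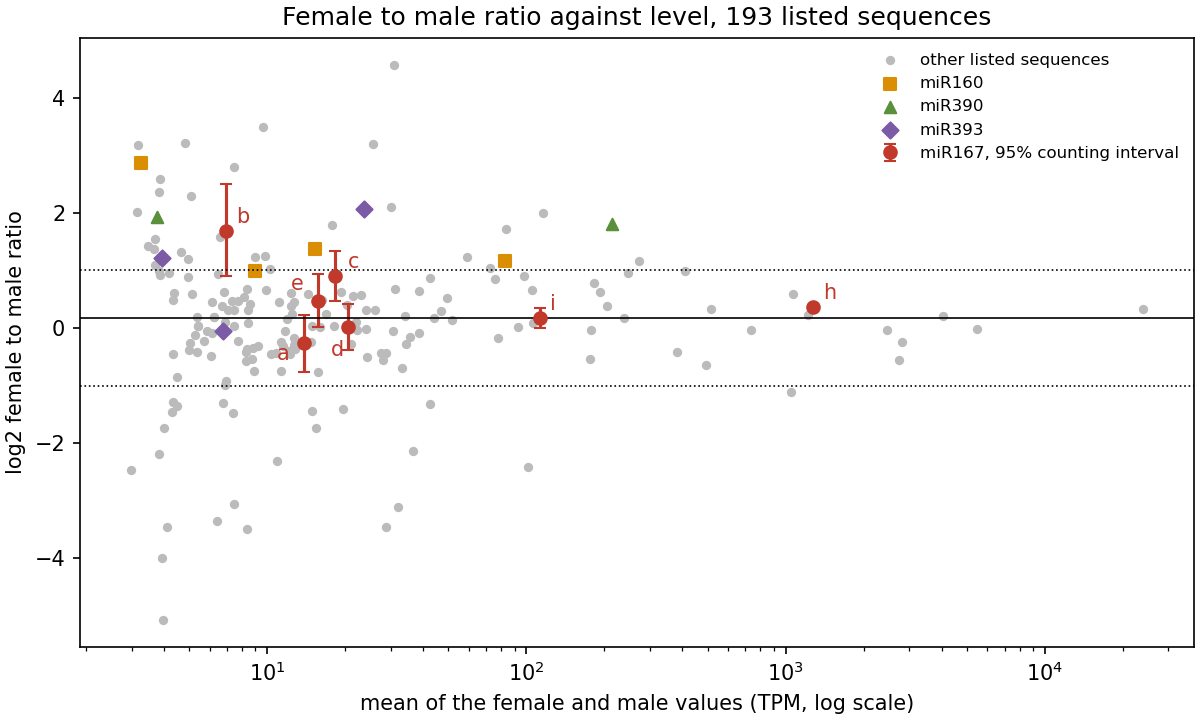
Log2 female to male ratio (vertical) against the mean of both values (TPM, log scale) for the 193 sequences above 0 in both libraries, with miR167 members in red and lettered, and miR160, miR390 and miR393 as marked; dotted lines mark 2-fold, the solid line the median of 0.18, and bars the 95% counting interval. Only aof-miR167b among the miR167 members lies beyond a dotted line, and the abundant aof-miR167h and aof-miR167i lie near the median.

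The make-up of the family could be compared within each library, which removes the scaling between them. The last-base variant aof-miR167i made up 7.70% (7.08 to 8.36) of the reads of aof-miR167h and aof-miR167i together in females and 8.66% (8.05 to 9.31) in males, and these intervals overlapped. The 5′-shifted aof-miR167e made up 1.26% (1.002 to 1.57) of its sum with aof-miR167h in females and 1.17% (0.932 to 1.44) in males. For the shortened aof-miR167a the same share was 0.872% (0.657 to 1.13) and 1.33% (1.08 to 1.62). For aof-miR167d it was 1.42% (1.14 to 1.74) and 1.78% (1.49 to 2.11). For each of these 3 listed variants the intervals of the sexes overlapped, and the shorter aof-miR167g was not among them. Overlap of 2 such intervals does not show that a share was equal in both libraries, and the differences were not tested.

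The pair aof-miR167c and aof-miR167d, which differ only by G21A, had different proportions in the 2 libraries. The share of aof-miR167c in the pair was 53.6% (46.3 to 60.8) in females and 38.6% (32.0 to 45.5) in males, so that aof-miR167c was the more abundant in females and aof-miR167d in males. The other-arm member aof-miR167b held 0.643% (0.471 to 0.857) of the family in females and 0.256% (0.159 to 0.391) in males. Both pairs of intervals were apart. They reflect counting error in 1 library per sex, and whether either difference recurs between plants was not tested. The listing of aof-miR167b rested on its female value.

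By length, the listed miR167 values lay mainly at 22 nt. The 22-nt members held 94.8% of the summed value of the 7 listed members in females and 94.99% in males. Over all other families and candidates, 22-nt sequences held 1.02% and 1.18%, and 21-nt sequences held 96.5% and 96.6%. The miR167 pair was 2 of the 22 sequences of 22 nt listed but carried 73.3% of their summed value in females and 67.5% in males. In plants, miRNAs of 22 nt are known for their ability to start the production of secondary small RNAs from a cleaved transcript, which was not analysed here.

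The study's supplementary data list hairpin precursors from the rice genome, which served as reference, for 5 of the members, and 9 distinct precursors hold aof-miR167a at their 5′ end. Every one of the 9 starts with these 20 bases and differs after them. Of the 9, 6 continue as aof-miR167d, 5 of these as aof-miR167h, and 3 as aof-miR167c. The last base of aof-miR167i was in none. The hairpins are 62 to 181 bases long, and 18 to 20 of the first 20 bases were paired when folded. The hairpins shown are a precursor that holds aof-miR167h and another that holds aof-miR167c, with the member in capitals.
rice precursor with aof-miR167h: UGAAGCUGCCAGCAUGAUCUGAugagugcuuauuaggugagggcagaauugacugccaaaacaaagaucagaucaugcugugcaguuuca
rice precursor with aof-miR167c: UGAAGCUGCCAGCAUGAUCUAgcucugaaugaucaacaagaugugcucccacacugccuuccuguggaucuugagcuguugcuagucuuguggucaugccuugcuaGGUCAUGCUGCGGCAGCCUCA

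In the second hairpin the capitals at the 3′ end mark the stretch most like aof-miR167b, from base 107 on, where 18 of 21 bases were identical. A further precursor that holds aof-miR167c matched aof-miR167b at 17 of 21 bases in the same place, and the remaining precursors matched it at 10 to 15 bases at their best. The rice hairpins closest to aof-miR167b were therefore 2 of the 3 that hold aof-miR167c, and aof-miR167b and aof-miR167c were the members with the largest female to male ratios. This was noticed after the values were seen, and which asparagus loci make the members is not known from these data.

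The target table listed 8 alignments of miR167 to 8 unigenes, and all came from low members, 7 from aof-miR167e and 1 from aof-miR167a. A missing alignment does not show that a member lacks the site. From its degradome, the study also links aof-miR167a to UN12573 and UN08763, which are listed here for aof-miR167e only. Of the 8 unigenes, 5 were described by their best GenBank hit as auxin response factors. Among the 139 unigenes aligned to other conserved families and among those aligned to candidates without a family, 0 carried such a description. None of the 8 was aligned to a miRNA outside miR167. The score of an alignment is a penalty, and in all 463 alignments it equalled 1 for each mismatch, 0.5 for each G:U pair and 2 for each gapped base. No alignment exceeded a score of 3.

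Of the 8 unigenes, 6 held 1 of 2 sites that differ by a single base. The sites are given 5′ to 3′ on the strand that pairs with the miRNA, with capitals where the base was not in a Watson-Crick pair with the miRNA named.
ARF8-type site, aof-miR167e: uUagaucaGgcuggcagcuuG
ARF6-type site, aof-miR167e: uGagaucaGgcuggcagcuuG
UN14477 site, aof-miR167a: GgauGaugUuggcagcuucU
UN15010 site, aof-miR167e: ucagauGaugcuggUCgcuuU

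The ARF8-type site was found in UN02784 and UN21824, described as auxin response factor 8-like, and in UN45321, described as an auxin response factor without a number. All 3 alignments scored 2.5, the lowest of the family. Their aof-miR167e bases 1 and 13 were mismatched and base 20 formed a G:U pair, while the other 18 of 21 bases were paired. The ARF6-type site carries the substitution U2G, counted from the 5′ end of the site, which turns that G:U pair into a mismatch and raises the score to 3. It was found in UN12573, described as auxin response factor 6-like, in UN04709, described as an auxin response factor without a number, and in UN08763, described as a B3 family transcription factor. The last is not counted among the 5 because its description does not name an ARF. With it, 6 unigenes carried an ARF-type site or description. Unigenes that share a site may be fragments of the same gene, which the table does not resolve.

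The other 2 targets were of another kind. UN14477 had no GenBank hit, and its site had 16 of 20 bases paired with aof-miR167a, mismatches at bases 1 and 16 and G:U pairs at bases 12 and 20. UN15010 was described as a pyrrolidone-carboxylate peptidase, an enzyme that removes pyroglutamate from peptide ends. Its site was mismatched at bases 6 and 15 of aof-miR167e, with G:U pairs at bases 1 and 7, so that bases 2 to 8 were interrupted, whereas they were paired throughout in the ARF-type alignments. That contrast holds for aof-miR167e only. Base 2 of aof-miR167h, i, c, d and a, within their seed, was mismatched at both ARF-type sites. Bases 10 and 11 of the miRNA, between which Argonaute cuts the target, were paired in all 8 alignments.

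The sites lay on the forward strand of the unigene in 5 alignments and on the reverse strand in 3, which included UN02784 and UN45321 of the ARF8-type. Assembled unigenes have no fixed orientation, so the strand alone does not tell the sense of the transcript. In UN21824 the site spans bases 57 to 77, in UN12573 bases 633 to 653, in UN08763 bases 484 to 504, and in UN04709 bases 83 to 103. On the reverse strand it runs from base 567 to 547 in UN02784, from 203 to 183 in UN45321 and from 462 to 443 in UN14477, and the site of UN15010 spans bases 55 to 75. In their scores, 5 of the 8 alignments had the highest allowed score of 3, as did 39.96% of all alignments, and none was under 2.5, while 67 of the 245 alignments of other conserved families (27.3%) were. This difference was not tested.

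The abundant aof-miR167h had no listed alignment, so its pairing was read off the 4 distinct sites, base by base, without adding bases outside the listed stretch. At the ARF8-type site, aof-miR167h paired at 18 bases with 1 G:U pair and 2 mismatches, and the unigene base opposite its first base was not listed, so its penalty would be 2.5 or up to 3.5. Under the same reading aof-miR167c, whose last base turns the G:U pair into an A:U pair, would have a penalty of 2 to 3 at this site. For aof-miR167d it would be 2.5 to 3.5, and for aof-miR167i, whose last base is mismatched, 3.5 to 4.5. At the ARF6-type site the penalty of aof-miR167h would be 3 to 4 and that of aof-miR167c also 3 to 4. For aof-miR167a, which ends before the base that distinguishes the sites, it would be 2 to 3 at both. The base that separates aof-miR167c from aof-miR167d thus paired in full with the ARF8-type site, while the number of mismatches at the ARF6-type site was 3 for both. These are penalties computed from letters, and no cleavage data were analysed here.

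**Figure D4:**
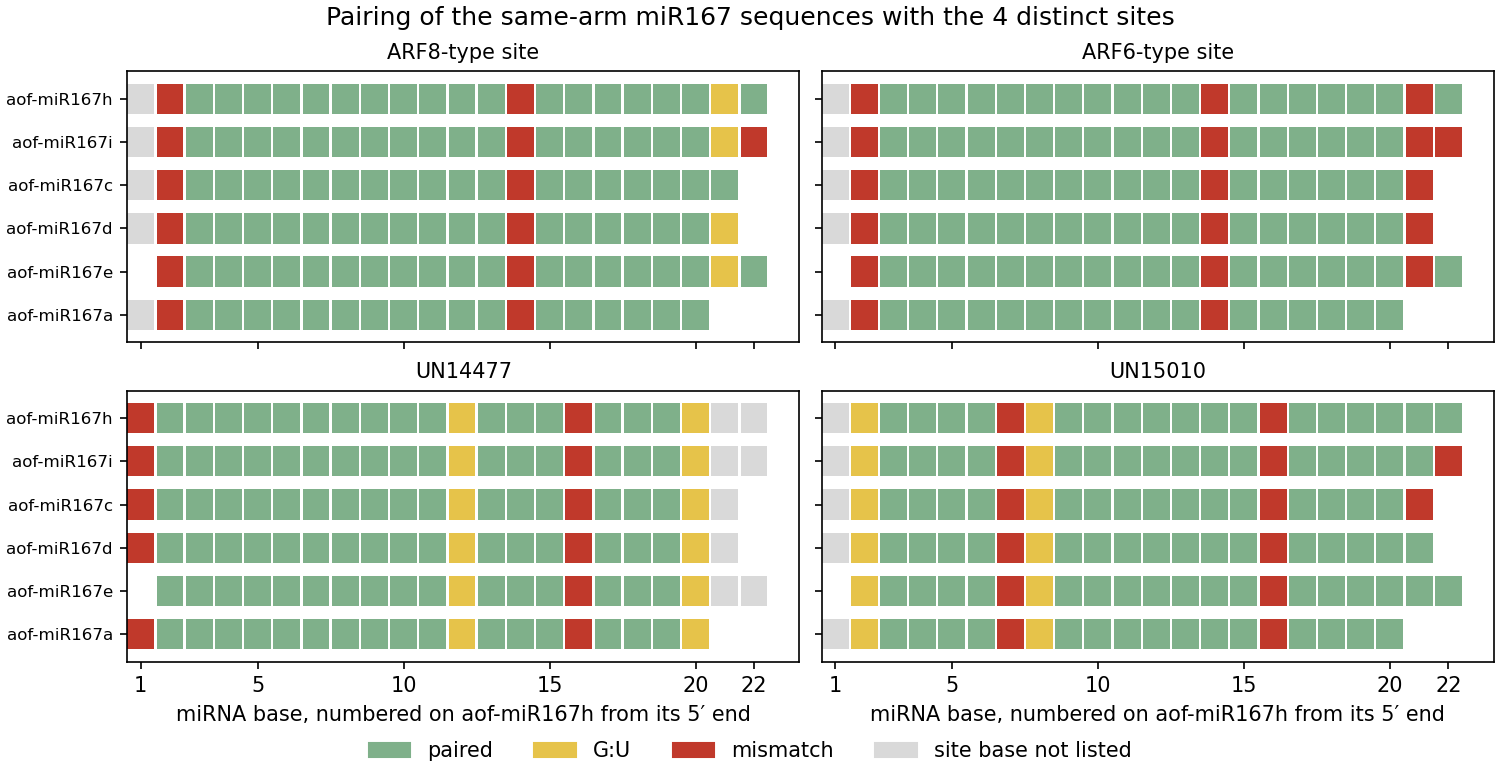
Pairing of the 6 same-arm members (rows) with the 4 distinct miR167 sites (panels), by miRNA base numbered on aof-miR167h from its 5′ end; green is a Watson-Crick pair, yellow a G:U pair, red a mismatch and grey a base whose partner was not listed. In both ARF-type panels bases 2 and 14 are mismatched for every member, and base 21 is paired only for aof-miR167c at the ARF8-type site.

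A further 3 conserved families act on auxin signalling in plants: miR160 targets ARF10, ARF16 and ARF17, which act as repressors, miR390 starts the TAS3 small RNAs that act on ARF2, ARF3 and ARF4, and miR393 targets the auxin receptors TIR1 and AFB. Of the 9 sequences assigned to them, 7 were over 2-fold higher in females and 0 in males. Beside this stand 1 of the 7 listed for miR167 and 18.0% of all sequences over 2-fold higher in females. Among the 7 of these families, aof-miR160c (5.72 and 0.78 TPM in females and males), aof-miR390c (5.94 and 1.57 TPM) and aof-miR393a (5.49 and 2.35 TPM) were listed only through their female values. The others reached 5 TPM in both libraries. Some of the 9 differ from another only in length, as aof-miR390c from aof-miR390a, so they are not independent. The median log2 ratio of the 9 sequences was 1.37, against 0.36 for miR167. The most abundant sequence assigned to each family was aof-miR160d with 114.55 TPM in females and 51.14 TPM in males, aof-miR390a with 332.68 and 94.91 TPM, and aof-miR393b with 37.95 and 9.10 TPM. The summed ratios were 2.32 (2.05 to 2.63) for miR160, 3.51 (3.19 to 3.86) for miR390 and 2.73 (2.17 to 3.44) for miR393. None of these counting intervals reached that of miR167. The sums leave out the candidate aof-miRn28, which is aof-miR160b with 1 added G at its 5′ end. That candidate had 730.06 TPM in females and 744.81 TPM in males, more than any sequence assigned to miR160. The female excess of miR160 therefore holds for its assigned sequences only. None of the 12 alignments of these families was to a unigene described as an auxin response factor. In another unigene set, however, the study mapped cleavage of auxin response factor mRNAs at sites of aof-miR160d.

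In its ratio miR167 was the 12th of the 26 families, counted from the most female. The families nearest to it were miR394 (1 sequence) with a log2 ratio of 0.38, miR166 with 0.22 and miR172 with 0.16, against 0.35 for miR167. Among single sequences not assigned to miR167, the nearest to aof-miR167h in level and ratio together were aof-miR159a, with 1317.21 TPM in females and 1128.36 TPM in males, aof-miR164b with 1277.43 and 850.54 TPM, and the candidate aof-miRn28 with 730.06 and 744.81 TPM. The last has no family assignment but holds the whole sequence of aof-miR160b. This likeness was measured over 2 libraries only.

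**Figure D5:**
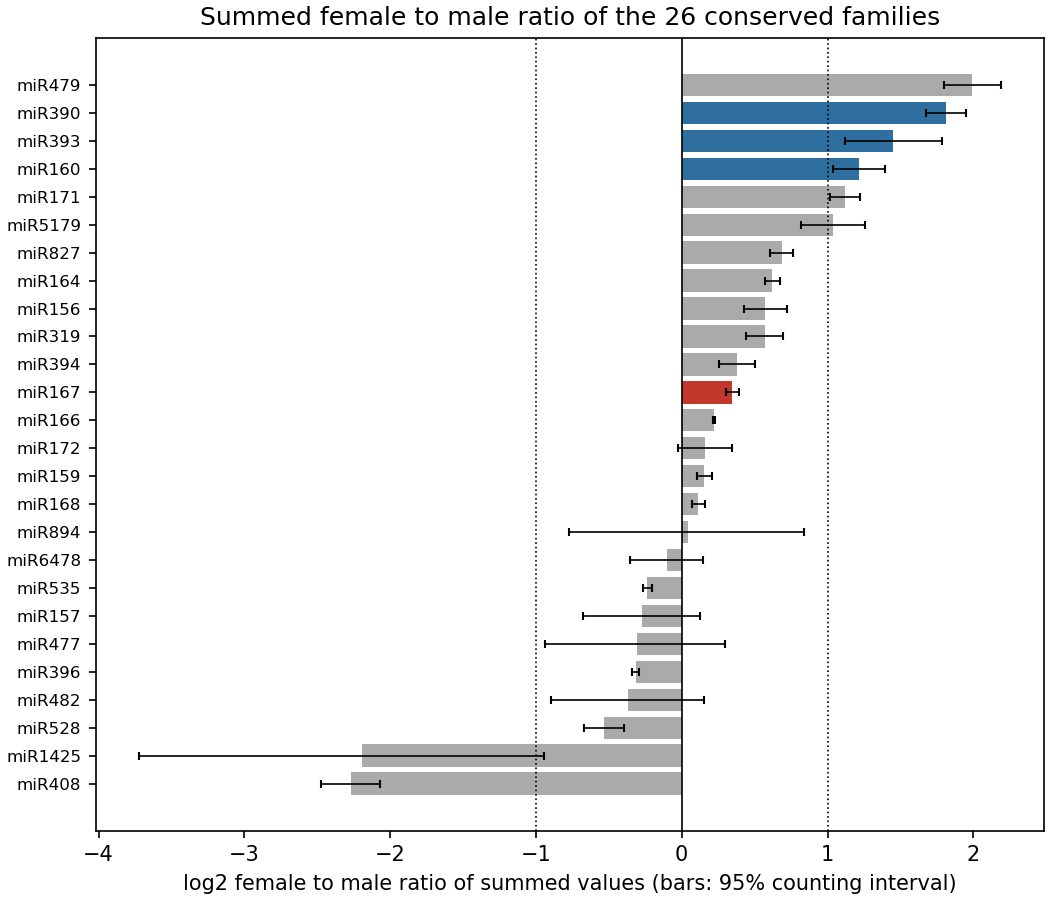
Log2 female to male ratio of the summed values of the 26 conserved families, with miR167 in red, miR160, miR390 and miR393 in blue and the others in grey; error bars are 95% counting intervals and dotted lines mark 2-fold. The bar of miR167 ends at 0.35, and those of the 3 other auxin-related families end beyond 1, with the candidate aof-miRn28 not counted in miR160.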

How the data were processed

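The authors deposited RPM values, which they call TPM, for small RNAs between 20 and 24 nt that reached 5 TPM in either library, after removal of adapters, low-quality reads and structural RNAs and a search of miRBase. The deposited target table gives, per alignment, a score, the E-value of the best hit and positions on the unigene, and the methods name psRNATarget and CleaveLand for target searches without saying which made this table. Groups follow the sex in the labels, with 1 library each.

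Female to male ratios were computed without a pseudocount, and over 2-fold apart was counted. Reads were rebuilt from steps of the values up to 60 TPM (99.4% whole multiples in each library within 0.0051 TPM), as a condition and not as a certainty, and exact (Clopper-Pearson or Poisson) 95% intervals were made from them. Median values of the list were 11.8 and 11.5 TPM, and 10 TPM stands for 43.7 and 63.7 reads on that condition. Precursors and duplexes were folded with RNAfold and RNAduplex (ViennaRNA 2.7.2) from sequences in the study's supplementary data. Python 3.11.15, numpy 2.4.6 and scipy 1.17.1 were used.

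All 7 members, all 8 targets, the auxin-related families and the 3 nearest families and sequences are named. The members, lists and rules were chosen with earlier results of these data known. Alternatives were pseudocounts, rescaling, a minimum of 10 TPM, other fold thresholds, Fisher's exact test on rebuilt reads, merged end variants, and subsets of members and alignments.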

Additional observations from a re-analysis of the deposited data

How the results depend on the processing

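The family ratio of 1.27 moved beyond its counting interval to 1.13 after rescaling by the median ratio, 1.14 after rescaling by the summed values and 1.20 without aof-miR167h, and kept its direction under all 7 alternatives. The count of 1 member over 2-fold apart became 0 with 5 TPM added and 2 at 1.5-fold. It stayed at 1 under the other 7 alternatives, which include Fisher's exact test on rebuilt reads, a comparison of 2 libraries and not of the sexes. With its end variants summed, aof-miR167h held 90.6% of the family in females and 90.5% in males, in place of 87.5% and 86.8%. The 5 ARF-described unigenes became 3 among the alignments that scored under the family's median, 3 on the forward strand and 0 for aof-miR167h alone. They became 6 with the B3 family protein counted, an alternative chosen after seeing the data. Rescaling reversed aof-miR167d, from a log2 ratio of 0.02 to -0.15 by the median ratio and -0.14 by the summed values, and aof-miR167i, to -0.0039 by the median ratio. Depth limits the 5 members under 25 TPM most, and 1 library per sex limits every comparison.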

Other observations

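In the deposited tables the running code miR167 is carried by aof-miR396k of family miR396, with 23.09 TPM in females and 17.41 TPM in males and 7 alignments of its own, so the members of miR167 can be found only by the family assignment. Of the 7 miR167 sequences 2 had a listed alignment, beside 94 of the 147 sequences of other conserved families. The value of aof-miR167h was 136 times that of the other-arm member aof-miR167b in females and 339 times in males.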
